A study of Mus musculus with 4 samples.

Results

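The 42 genes described here are cell cycle genes other than histones, chosen by symbol from the 32285 genes of the mouse annotation, and all 42 were present in all 4 libraries. They fall into 17 genes of DNA replication (S phase), 24 genes of the G2 and mitotic phases, and Stmn1, which was put in neither group. The libraries were made by single-cell RNA sequencing in droplets (10x Genomics) from MC38b tumours, MC38 being a mouse colon carcinoma line. Collection was 24 h after dose 2 of an antibody against PD-1 plus an antibody against TL1A (1 library, called the combination here), of the antibody against PD-1 alone (1 library), or of saline (2 libraries, PBS 1 and PBS 2). PD-1 restrains T cells once they are activated, and TL1A belongs to the TNF family of cytokines. The labels of both saline libraries state 2 animals and those of each treated library state 4, pooled as suspensions before sorting. The labels give no strain, sex or age. They do not say whether each PBS library held 1 animal or a pool, so the p-values cover no more than library-to-library spread, which can be technical. CD45+CD3+, CD45+CD3- and CD45-CD3- cells were sorted and remixed at 9 to 9 to 2, so all shares below are within a cell class.

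Cells that enter S phase copy their DNA once and then divide. In G1, E2F transcription factors released from the retinoblastoma protein switch on the replication genes: the Mcm2 to Mcm7 helicase and its loader Cdc6, the sliding clamp Pcna, the nucleotide enzymes Rrm1, Rrm2, Tyms, Tk1 and Dut, and the E cyclins. Later, the MuvB complex with B-MYB and FOXM1 switches on the mitotic genes, whose promoters often hold a CHR element (cell cycle genes homology region) next to CCAAT boxes. In tumours, cells of the malignant line, activated CD8 T cells and some resident macrophages are known to divide, whereas neutrophils in tissue are largely post-mitotic.

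The 2 kinds of promoter are shown by 4 members, Mcm6 and Mcm5 for replication and Top2a and Mki67 for mitosis, because they show how the groups differ in sequence. Each line is the 150 bases that end at the base before the RefSeq start (GRCm38.p6), in the gene's sense. They lie at chr1:128359706-128359855 (minus strand) for Mcm6, chr8:75109359-75109508 (plus) for Mcm5, chr11:99024190-99024339 (minus) for Top2a and chr7:135716380-135716529 (minus) for Mki67. Capitals mark matches, on either strand, to an E2F word (TTTCCCGC, TTTCGCGC, TTTGCCGC or TTTGGCGC), to the CHR word TTTGAA and to CCAAT.
Mcm6: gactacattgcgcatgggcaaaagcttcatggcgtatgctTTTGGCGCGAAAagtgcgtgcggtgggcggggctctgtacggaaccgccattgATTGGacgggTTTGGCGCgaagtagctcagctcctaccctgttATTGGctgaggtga
Mcm5: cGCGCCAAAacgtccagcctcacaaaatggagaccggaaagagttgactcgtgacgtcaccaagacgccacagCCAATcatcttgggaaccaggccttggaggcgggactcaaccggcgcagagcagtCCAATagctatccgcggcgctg
Top2a: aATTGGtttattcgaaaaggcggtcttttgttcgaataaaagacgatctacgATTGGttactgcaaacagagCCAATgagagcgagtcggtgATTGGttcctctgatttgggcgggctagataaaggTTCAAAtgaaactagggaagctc
Mki67: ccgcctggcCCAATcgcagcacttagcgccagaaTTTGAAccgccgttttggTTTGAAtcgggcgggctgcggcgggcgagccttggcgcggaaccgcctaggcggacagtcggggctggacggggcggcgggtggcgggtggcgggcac
In Mcm6 the first run of capitals is a pair of E2F words on opposite strands that overlap, beginning 110 and 106 bases before the start, and another begins 47 bases before it. Top2a has its CHR word 23 bases before the start and 4 CCAAT words upstream of it, and Mki67 has CHR words at 116 and 98 bases before the start.

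Over the window from 250 bases before to 50 after the start, 35 of the 42 members had a RefSeq promoter in the table used. An E2F word was found in 7 of 15 S-phase members (46.7%) and 1 of 20 mitotic members (5%), against 2.6% of all 27025 genes with a promoter. A CHR word was found in 1 of 15 S-phase members (6.67%) and 14 of 20 mitotic members (70%), against 20.2% of all genes. CCAAT stood in 10 S-phase members (66.7%) and 17 mitotic members (85%), against 41.1% of all genes. The 14 mitotic members with a CHR word all had a CCAAT word as well, against 8.97% of all genes with both. These are matches of letters in 1 window and not measured binding. Mcm4, Ccne2, Ccna2, Aurkb, Tpx2, Kif20a and Stmn1 had no entry.

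The combination, anti-PD-1, PBS 1 and PBS 2 libraries, always given in this order, held 11177, 13231, 6732 and 6448 barcodes with 142600208, 82816801, 92495603 and 78648222 unique molecular identifiers (UMIs, counted transcripts), and the anti-PD-1 cells were the shallowest (median 7098, 3588, 7798 and 7645.5 UMIs). Libraries shared barcodes: 1255 between anti-PD-1 and PBS 1, 1778 between anti-PD-1 and PBS 2, 673 between the PBS pair and 21 to 39 between the combination and each other library. Copies of a shared barcode at least 10-fold shallower than its deepest copy were left out (0.0183%, 14.4%, 2.39% and 7.45% of barcodes past the filters), which left 9930, 9910, 6077 and 5511 cells after doublet removal. Cells were clustered without 1261 genes in all: the members, other cell cycle genes and genes correlated with the members. The members themselves thus could not define the classes. The correlation was taken only over cells with a Cd3e UMI, and the same list was used for every class. Genes that follow the cycle only in macrophages, NK cells or CD45- cells could therefore have stayed in the clustering, and their part was not tested. Each class name means cells like that type by its markers. CD8 T cells had summed Cd8a and Cd8b1 of 1010, 975, 915 and 974 CPM (counts scaled to the same library total, as is usual), and regulatory T cells (Treg) had a summed Foxp3, Il2ra, Ikzf2 and Ctla4 of 8134, 6872, 6586 and 7515 CPM. The CD45- cells had at most 0.933 CPM of the epithelial list Krt8, Krt18, Epcam, Cdh1 and Krt19 in any library, so they are called CD45- cells and split by Col3a1 into collagen-low and collagen-high clusters. Low-UMI clusters (2.52%, 16.0%, 3.6% and 8.24% of cells) and mixed clusters (8.81%, 3.99%, 6.29% and 7.15%) were left out.

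A cell was called cycling when, thinned to 2000 UMIs, it had at least 5 UMIs from at least 3 of the 41 members other than Stmn1. In neutrophils, which should lack these transcripts, 1 of 132, 0 of 52, 0 of 112 and 0 of 173 cells were called, so a count of 0 allowed a share of up to 5.77%, 2.68% and 1.73% in the last 3 libraries. Cells with fewer than 2000 UMIs entered no share. They were 49 of 2366, 92 of 1937, 6 of 1206 and 4 of 1140 CD8 T cells, 83 of 807, 136 of 906, 35 of 536 and 19 of 510 Treg, 51 of 1924, 159 of 1719, 10 of 987 and 6 of 830 NK cells, and 41 of 173, 91 of 143, 23 of 135 and 17 of 190 neutrophils. The intervals below are exact Clopper-Pearson 95% intervals and cover counting error only.

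CD45- collagen-low cells had the highest shares of cycling cells in all 4 libraries, followed by CD8 T cells and C1q macrophages, which were close to each other in both PBS libraries. In the CD45- collagen-low clusters, which are led by Hmga2 and Tenm4, 49.7%, 51.1%, 64.7% and 51.6% of cells were cycling. In the collagen-high clusters, led by Col3a1 and Dcn, 8.66%, 4.88%, 11.2% and 7.58% were cycling, so the 2 kinds of CD45- cell did not overlap in any library. CD8 T cells had 22.1% (20.4 to 23.8), 18.9% (17.1 to 20.7), 20.8% (18.5 to 23.2) and 22.6% (20.2 to 25.2). The anti-PD-1 share was the lowest of the 4, and its interval overlapped that of each other library.

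Within the T cell gate the other classes cycled less. Treg had 5.25% (3.74 to 7.13), 6.88% (5.20 to 8.91), 7.98% (5.76 to 10.7) and 10.4% (7.83 to 13.4), and both treated libraries lay below both PBS libraries. T cells low in Cd4 and Cd8a had 3.66%, 4.24%, 6.61% and 8.08%, again with the treated libraries lower. Conventional CD4 T cells had 2.96%, 3.53%, 3.22% and 2.44%, with the groups overlapping. NK cells had 5.82% (4.80 to 6.98), 7.88% (6.60 to 9.33), 9.83% (8.03 to 11.9) and 7.89% (6.14 to 9.94), so the combination lay below both PBS libraries and anti-PD-1 beside PBS 2. With every library given the cluster composition of the PBS pair the NK shares were 6.49%, 6.77%, 8.57% and 9.81%, and both treated libraries then lay below both PBS libraries.

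Monocytes and macrophages had 5.93% (4.57 to 7.53), 5.44% (4.18 to 6.95), 10.6% (8.61 to 12.9) and 12.03% (9.75 to 14.6) cycling cells. The treated shares were 0.524 and 0.481 times the PBS mean of 11.3% ± 1.01 (SD, n = 2), and neither interval reached that of a PBS library. At the cluster composition of the PBS pair the shares were 8.58%, 8.35%, 10.2% and 12.5%. The difference was then smaller, and both treated libraries still lay below both PBS libraries. C1q macrophages held 61 of the 62 cycling monocytes and macrophages, 59 of 60, 89 of 89 and 84 of 87, and 13.0%, 12.2%, 20.8% and 22.95% of C1q macrophages were cycling. Among C1q-low monocytes, 0.174%, 0.162%, 0% and 0.840% were cycling, which is near the share in neutrophils. B cells (0%, 2.86%, 0.595% and 1.11%) and type 2 dendritic cells (cDC2; 3.06%, 1.96%, 7.04% and 4.00%) had 0 to 5 cycling cells per library, and mature dendritic cells had 0 of 48, 50, 34 and 42. Without thinning, the same rule called 58.1%, 40.2%, 56.6% and 65.4% of CD8 T cells, 27.1%, 16.4%, 39.1% and 44.6% of monocytes and macrophages, and 97.4%, 91.2%, 97.4% and 98.1% of CD45- cells. Cells lay near the threshold as well: in CD8 T cells 80, 62, 37 and 45 cells had 4 member UMIs and 57, 36, 36 and 24 had exactly 5 member UMIs.

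**Figure D1:**
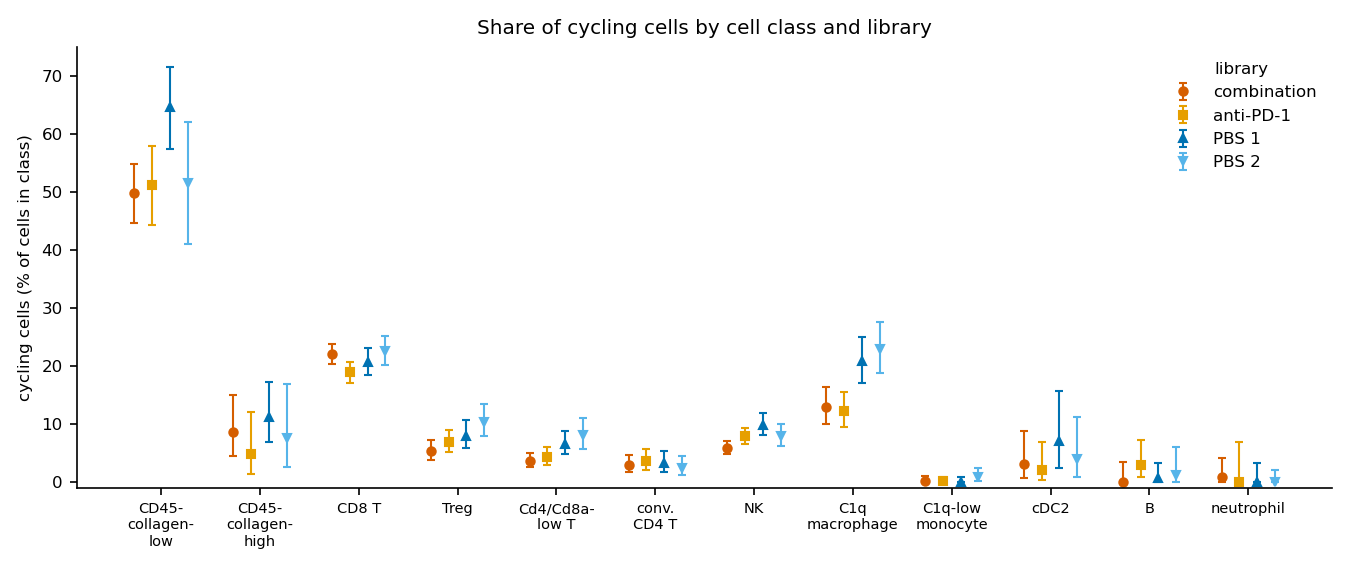
Share of cycling cells (y axis, % of the cells of a class after thinning) in 12 cell classes (x axis) for the combination, anti-PD-1, PBS 1 and PBS 2 libraries, 1 point per library with its exact 95% binomial interval. CD45- collagen-low cells sit between 49.7% and 64.7% and CD8 T cells between 18.9% and 22.6%, and in C1q macrophages both treated libraries lie below both PBS libraries.

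Cycling cells were split by which group of members had more UMIs, into S-led and mitotic-led cells. In CD8 T cells the mitotic-led cells made up 47.0%, 45.1%, 39.8% and 43.2% of cycling cells, so both phases were about equally represented. NK cells had 42.2%, 39.0%, 43.8% and 35.4%. In CD45- cells mitotic-led cells were the larger part (68.0%, 52.5%, 66.9% and 64.2%), and the anti-PD-1 library was the lowest. C1q macrophages had 77.0%, 57.6%, 58.4% and 70.2%, with the combination library highest, from 47, 34, 52 and 59 mitotic-led and 12, 21, 34 and 20 S-led cells. Treg had 52.6%, 64.2%, 57.5% and 49.0%. With 1 library per treated arm no test of the split was made.

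**Figure D2:**
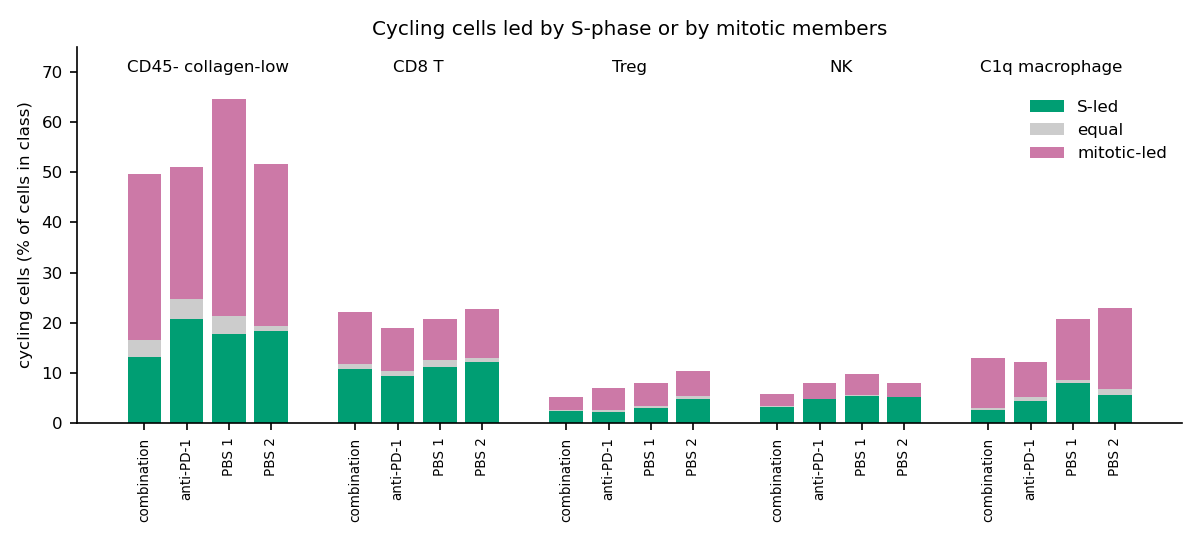
Cycling cells (y axis, % of the cells of a class) split into S-led, equal and mitotic-led cells, as stacked bars that start at 0, 1 bar per library in 5 classes. The mitotic-led part is the larger one in CD45- collagen-low cells and C1q macrophages, and the S-led and mitotic-led parts are close in CD8 T cells.

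The classes were also compared by the summed counts of each class and library, tested with edgeR's quasi-likelihood test over all genes (Benjamini-Hochberg adjusted p under 0.05). CD45- cells differed from CD8 T cells in 33 members, and 85.1% of all 15728 genes tested differed too, so the count itself says little about the members. The 2 groups of members went different ways. Of the S-phase members 4 were higher and 11 lower in CD45- cells (median log2 difference -0.65), and of the mitotic members 12 were higher and 5 lower (median 0.25). Topoisomerase Top2a, which untangles replicated DNA, had 549, 458, 595 and 477 CPM in CD45- cells and 356, 306, 338 and 370 CPM in CD8 T cells (scaled together in this comparison), and was 0.60 higher on the log2 scale. Mcm6 had a log2 difference of -1.26, with 63.0, 65.6, 61.7 and 69.5 CPM in CD45- cells and 151, 146, 161 and 165 CPM in CD8 T cells. Mki67, the coat protein of mitotic chromosomes and the usual proliferation marker, had a log2 difference of -0.92 although more CD45- cells were cycling. Its levels were 130, 99.9, 164 and 114 CPM in CD45- cells and 240, 187, 254 and 278 CPM in CD8 T cells, which do not overlap. Stmn1, a protein that takes microtubules apart, had a difference of -1.41.

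Monocytes and macrophages were lower than CD8 T cells in 38 members, beside 77.9% of 15119 genes that differed in either direction and 38.9% that were lower. The 38 were 16 of 17 S-phase members (median log2 difference -1.37), 21 of 24 mitotic members (median -0.74) and Stmn1 (-1.12). Dut, which removes dUTP, had the widest difference (-2.89), with 19.2, 19.4, 36.8 and 33.8 CPM in monocytes and macrophages and 202, 194, 206 and 195 CPM in CD8 T cells. Tk1 (-0.31), Bub1b (-0.13), Kif23 (0.07) and Aurka (0.09) did not pass.

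**Figure D3:**
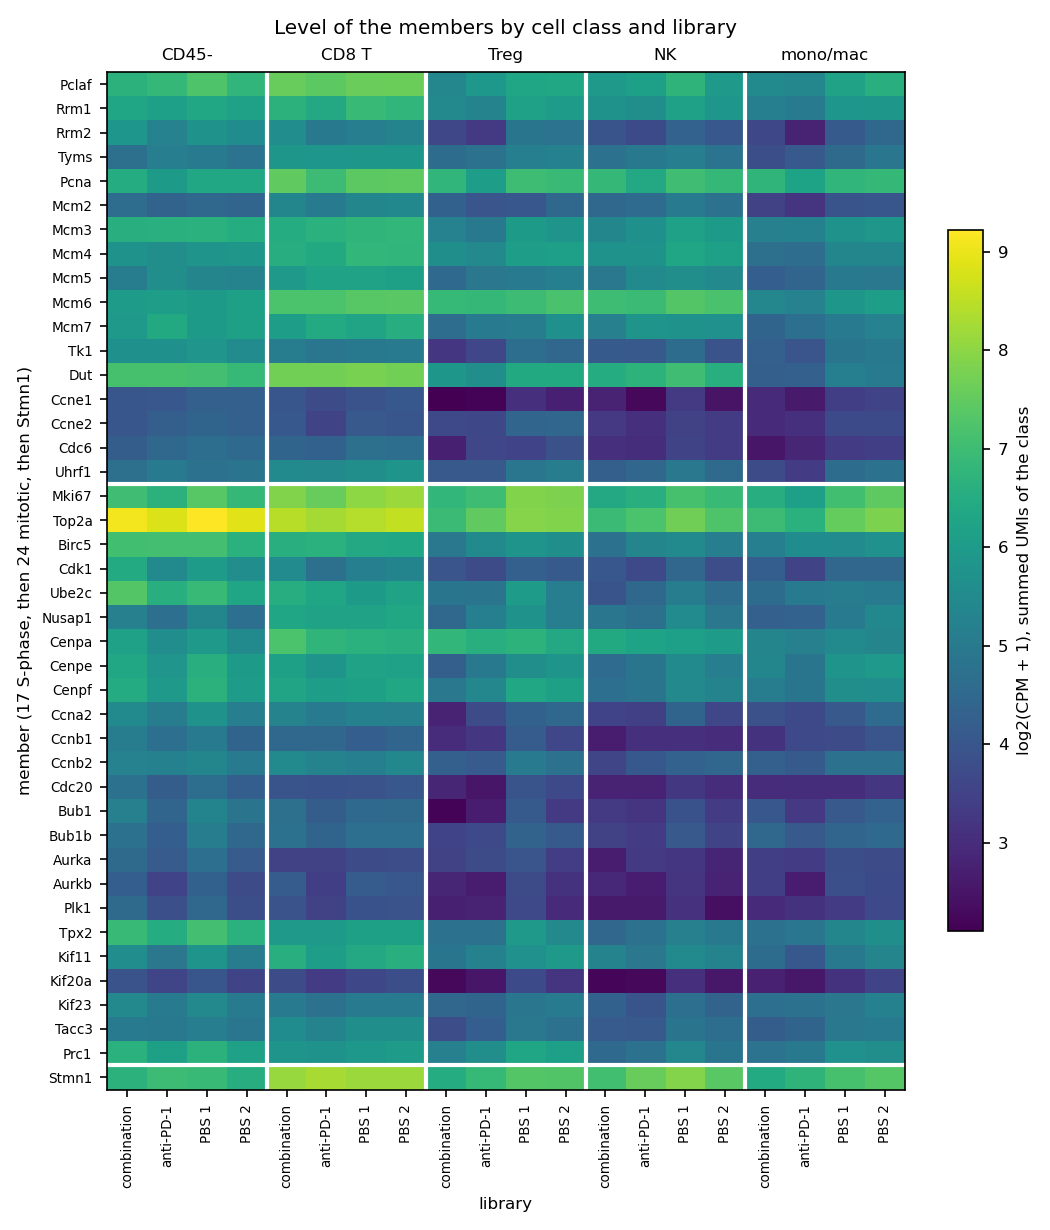
Level of each of the 42 members, as log2(CPM + 1) of the summed UMIs of a class (colour), in 5 classes with 4 libraries each (x axis), in the order combination, anti-PD-1, PBS 1 and PBS 2; rows are 17 S-phase members, 24 mitotic members and Stmn1. Columns of the same class look alike, Dut and Stmn1 are bright in CD8 T cells, and Top2a is brightest in CD45- cells.

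Monocytes and macrophages were the class in which edgeR called the most members against PBS, and every member called was lower. In the combination library 24 of 42 members were lower than in PBS (14 S-phase, 9 mitotic and Stmn1), beside 2.14% of all 14370 genes tested that were lower. In the anti-PD-1 library 29 were lower (14 S-phase, 14 mitotic and Stmn1), beside 4.42% of all genes. The median log2 change of the 42 members was -0.65 in the combination and -0.72 in anti-PD-1, against -0.01 and -0.00 over all genes. All 42 members had a negative log2 change in both, and 40 lay below both PBS libraries in each. The share of all genes below both PBS libraries was not counted. With fewer calls, the members' median log2 change was -0.82 and -0.71 in Treg and -1.53 and -0.99 in cDC2. The number of calls thus does not rank the classes by size of change. Both comparisons use the same PBS pair, so they are not independent. In bulk sums of this kind, fewer cycling cells and less RNA per cycling cell cannot be told apart.

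Among the replication genes, Rrm2, the small subunit of ribonucleotide reductase, had 11.4, 5.997, 16.2 and 21.3 CPM, a log2 change of -0.71 (SE 0.21, adjusted p = 0.049) in the combination and -1.64 (SE 0.25, adjusted p = 0.00019) in anti-PD-1. Its partner Rrm1 had 35.1, 32.1, 56.2 and 57.6 CPM and changes of -0.70 and -0.83. Uhrf1, which keeps DNA methylation through replication, had 12.4, 9.42, 23.6 and 26.2 CPM, with changes of -1.0 (adjusted p = 0.0014) and -1.40 (adjusted p = 9.2e-05). For all 3 genes the treated libraries lie below both PBS libraries. Of the 6 Mcm genes, 5 were lower in each comparison; the exceptions were Mcm2 in the combination (-0.52, adjusted p = 0.15) and Mcm7 in anti-PD-1 (-0.45, adjusted p = 0.070). Pcna parted the 2 libraries, with 107, 74.2, 110 and 114 CPM: it was lower in anti-PD-1 (-0.60, adjusted p = 0.0010), it had a change of -0.08 in the combination (adjusted p = 0.76), and the combination lay 0.52 above anti-PD-1 (adjusted p = 0.022), beside 1.7% of all genes that were higher.

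Among the mitotic genes, Top2a had 124, 99.4, 185 and 225 CPM, with changes of -0.72 (SE 0.12, adjusted p = 0.0015) in the combination and -1.04 (SE 0.12, adjusted p = 5.8e-05) in anti-PD-1. Prc1, which bundles the midzone of the spindle, had 27.2, 30.4, 51.1 and 47.9 CPM and changes of -0.86 and -0.70. The centromere motor Cenpe (40.6, 28.4, 53.9 and 59.8 CPM) and the spindle proteins Nusap1, Tpx2 and Tacc3 were lower in both. Mki67 had 91.3, 69.03, 132 and 175 CPM; it was lower in anti-PD-1 (-1.15, adjusted p = 0.013) and had a change of -0.75 in the combination (adjusted p = 0.066). Cdk1, the kinase that drives entry into mitosis, was lower in anti-PD-1 only by the test (17.8, 10.9, 20.9 and 20.8 CPM; -0.94 with adjusted p = 0.0031, against -0.23 with adjusted p = 0.54 in the combination), and its difference between the treated libraries was 0.71 (adjusted p = 0.073). Its partner Ccnb1 and Birc5 were lower in the combination (-0.77 and -0.46) and had changes of -0.19 and -0.07 in anti-PD-1. Ube2c, Cenpa, Ccna2, Cdc20, Bub1b, Aurka, Plk1 and Kif23 were called in neither.

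Genes of the same programmes that are not members were counted as well. Of 30 other mitotic genes 16 were lower in the combination and 18 in anti-PD-1 (median log2 change -0.63 and -0.65), none higher, among them Anln, Kif15, Ckap2l and Knl1 in anti-PD-1. Of 24 other replication genes 8 and 7 were lower (median -0.60 and -0.48), led by Pola1 (-0.82 and -0.99), the DNA polymerase alpha subunit that begins each strand. Of 17 E2F, pocket protein, MuvB and FOXM1 regulators 0 were called in the combination and 5 were lower in anti-PD-1 (E2f8, Lin9, Tfdp1, Rbl1 and E2f7); 5 had an unadjusted p under 0.05 in the combination. Of 13 cyclin D, CDK and CDK inhibitor genes, Cdk4 was lower in the combination (-0.57), and in anti-PD-1 Cdk6 (-0.54) and Cdkn2c (-1.01) were lower and Cdkn1a (0.37) was higher.

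The call depended on how the macrophages were divided, which was looked at after seeing the data. C1q macrophages alone gave 18 and 22 lower members, beside 2.03% and 3.69% of all genes that were lower, and C1q-low monocytes, in which 26 members could be tested, gave 0 and 0 by edgeR (1 and 2 at an unadjusted p under 0.05), with 0.82% and 0.703% of all genes called. C1q macrophages held 3 clusters. The cluster led by Mrc1, C1qc and Apoe made up 37.9%, 36.4%, 61.0% and 55.2% of them, and 25.1%, 25.0%, 26.4% and 37.1% of its cells were cycling. The cluster led by Arg1 and Cxcl9 made up 51.3%, 55.7%, 31.1% and 36.1%, and 6.22%, 4.89%, 12.03% and 4.55% of its cells were cycling. The treated libraries thus held a smaller part of the cluster that cycled more. Whether genes tied to cycling in macrophages helped to set these clusters was not tested. Within the Mrc1-led cluster only Prc1 was lower in the combination (-0.63), and in anti-PD-1 Uhrf1 was lower (-0.95) and Ube2c higher (0.66), beside 2.05% and 5.04% of all genes called. Within the Arg1- and Cxcl9-led cluster 0 members were called in the combination (2 at an unadjusted p under 0.05) and Cenpe was lower in anti-PD-1 (-1.15), beside 1.72% and 2.36% of all genes called. The median change of the members was -0.30 and -0.29 in the Mrc1-led cluster and -0.12 and -0.54 in the other. With every library given the mean cluster composition of the PBS pair, the cycling share of C1q macrophages was 16.9%, 16.4%, 20.4% and 23.9%.

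Transcripts of other cells moved with treatment in the same class. In monocytes and macrophages the summed neutrophil list was 248, 190, 69.3 and 87.3 CPM and the summed T cell list 46.7, 31.9, 21.4 and 24.7 CPM, higher in both treated libraries; their part in the result was not tested. With the low copies of shared barcodes kept, 27 and 29 members were lower, and the share of all genes lower in that fit is not reported here. DESeq2 called 4 and 4 members, beside 1.02% and 1.99% of all genes: Stmn1, Mki67, Pclaf and Top2a in the combination, and Pcna, Mki67, Pclaf and Top2a in anti-PD-1.

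**Figure D4:**
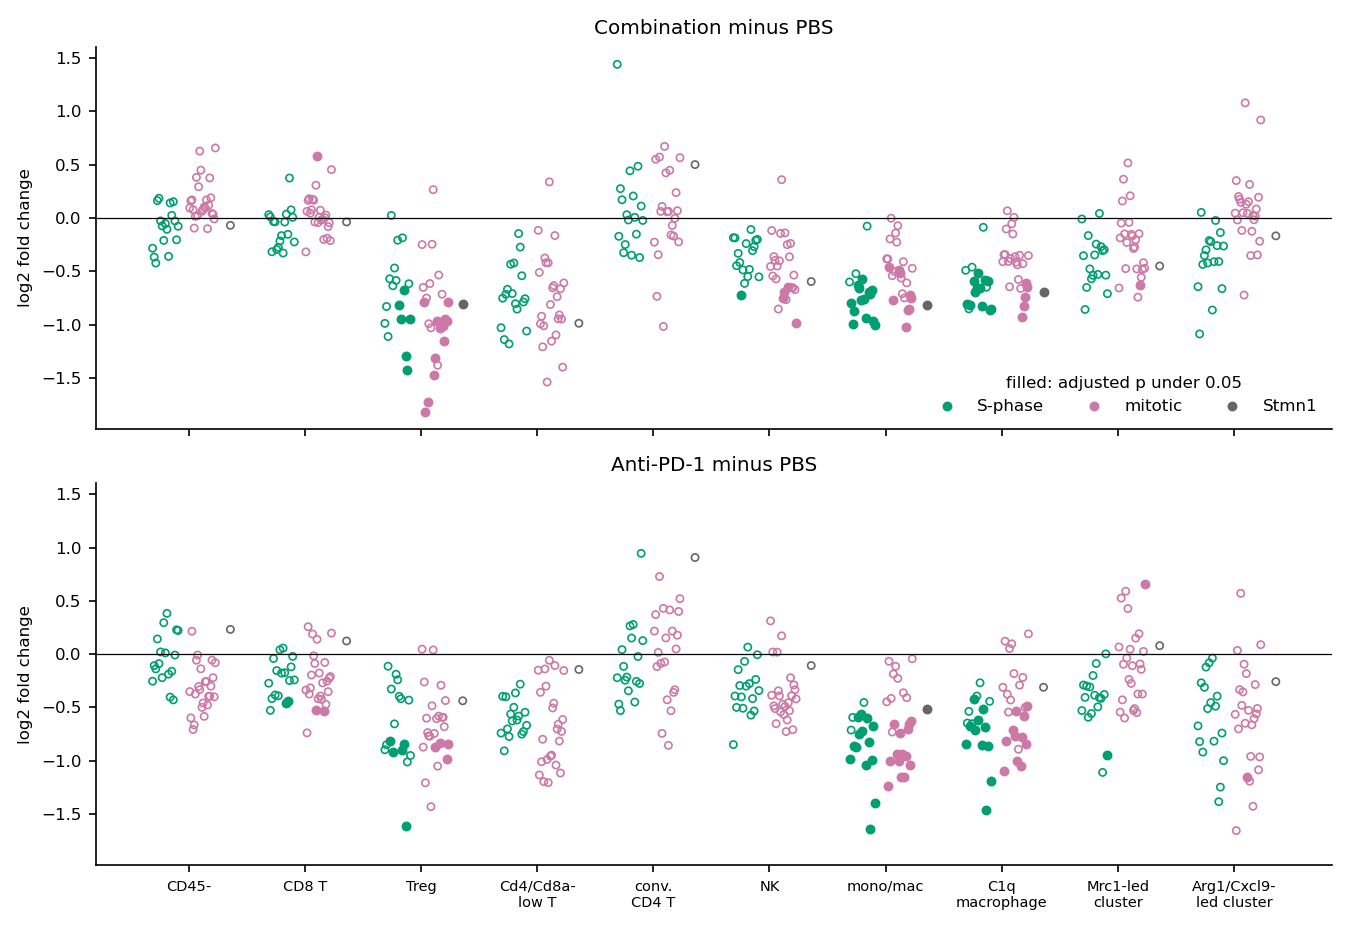
Log2 fold change of each member (y axis) in 10 cell classes or clusters (x axis), for the combination minus PBS (upper panel) and anti-PD-1 minus PBS (lower panel); green is S-phase, pink mitotic and grey Stmn1, and filled points passed an adjusted p under 0.05. In monocytes and macrophages 24 and 29 members are filled and all 42 lie below 0, whereas in the Mrc1-led cluster 1 and 2 are filled.

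**Figure D5:**
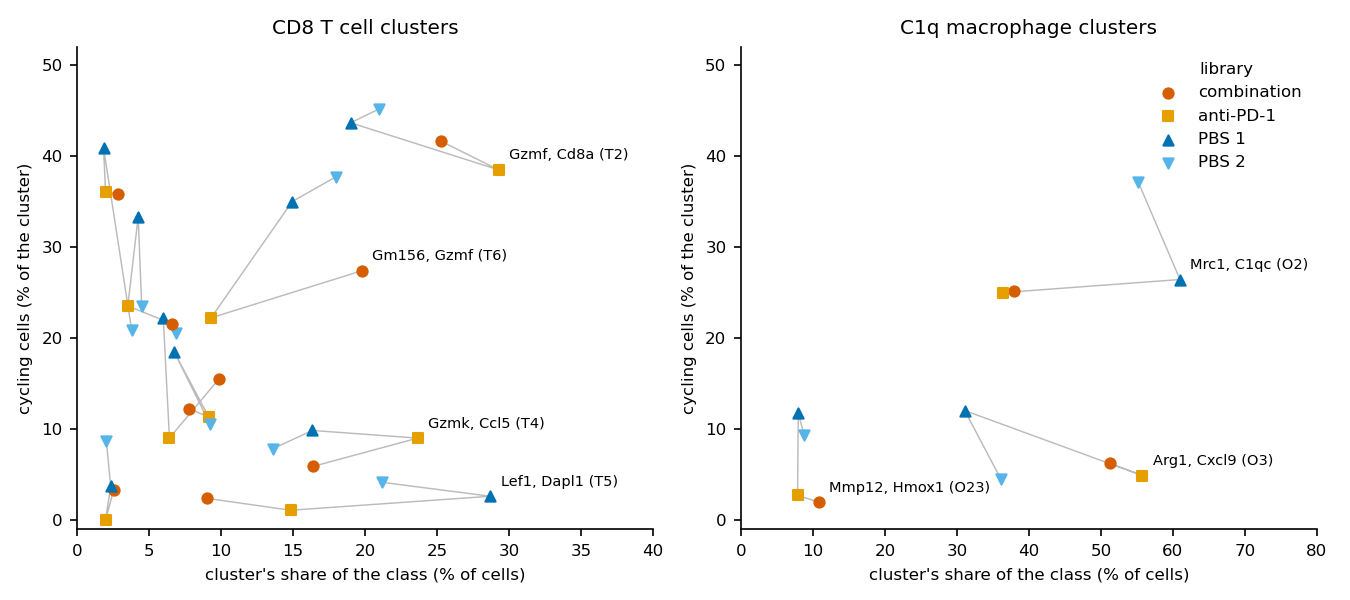
Share of cycling cells in a cluster (y axis, %) against the cluster's share of its class (x axis, %), for 9 CD8 T cell clusters (left) and 3 C1q macrophage clusters (right), 1 point per library with a grey line joining the points of a cluster. In the right panel the Mrc1-led cluster lies high and moves to the left in the treated libraries (37.9% and 36.4% of the class, against 61.0% and 55.2%).

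Treg showed the same direction. In the combination 20 of 42 members were lower than in PBS (6 S-phase, 13 mitotic and Stmn1), beside 0.764% of all 11647 genes that were lower, with a median change of -0.82 for the members and -0.01 for all genes. In anti-PD-1 9 members were lower (5 S-phase and 4 mitotic), beside 0.446% of all genes, with a median of -0.71. Mki67 had 111, 127, 232 and 224 CPM, with changes of -1.03 (SE 0.15, adjusted p = 1.6e-08) in the combination and -0.84 (SE 0.15, adjusted p = 7.2e-05) in anti-PD-1. Cenpf had 30.2, 40.98, 79.8 and 70.4 CPM, with changes of -1.31 and -0.87, and Rrm2 had 11.2, 8.96, 28.2 and 27.0 CPM, with -1.30 and -1.62. In all 3 the treated libraries lay below both PBS libraries by more than the PBS pair differed. Cenpe (18.3, 30.4, 48.1 and 53.7 CPM), Top2a (124, 176, 242 and 234 CPM) and the S and G2 cyclin Ccna2 (6.10, 12.2, 18.9 and 21.6 CPM) were lower in the combination, by changes of -1.48, -0.94 and -1.73, and did not pass in anti-PD-1 (-0.74, -0.44 and -0.74); none of the 3 passed between the treated libraries. Pcna was lower by edgeR in anti-PD-1 only, with 109, 66.6, 128 and 120 CPM (-0.90, adjusted p = 0.00017). The combination lay 0.71 above anti-PD-1 for it (adjusted p = 0.035), beside 0.369% of all genes that were higher. Pcna was also lowest in the anti-PD-1 library in monocytes and macrophages and in CD8 T cells, so this low level is not particular to Treg.

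Outside the members, 9 of 30 other mitotic genes were lower in Treg in the combination (Hmmr -1.39, Cdca8 -1.11) and 2 in anti-PD-1 (Ect2 and Kif15), and 3 and 2 of 24 other replication genes were lower, Prim1 in both. Btg2, an antiproliferative gene, was higher in the combination (0.85, adjusted p = 1.9e-05). The call rested on the choice of cells. The largest Treg cluster alone gave 21 and 13 lower members, beside 0.897% and 0.61% of all genes that were lower. With the cluster that holds both Foxp3 and Cd8a added (228, 59, 45 and 99 cells), 6 and 9 were lower, beside 0.81% and 0.818% of all genes, and the cycling shares were 7.56%, 7.37%, 8.42% and 12.4%. Clustered with the cell cycle genes the count was 0 and 4, and with low copies kept 10 and 2. The share of all genes called in those fits is not reported here. By DESeq2 the count was 0 and 0, with 0.0687% and 0.00859% of all genes called. The summed Cd8a and Cd8b1 in Treg was 54.9, 23.4, 12.9 and 20.3 CPM, highest in the combination, and its part in the result was not tested.

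In CD8 T cells few members passed the test. In the combination 1 member was called, Cenpa, the histone H3 variant of centromeres, with 145, 107, 98.7 and 95.9 CPM (0.58, SE 0.093, adjusted p = 0.0098), beside 0.94% of all 14463 genes that were higher. In anti-PD-1 4 members were lower, beside 0.505% of all genes. These were Mki67 (234, 187, 258 and 281 CPM; -0.53, SE 0.11, adjusted p = 0.031), Pcna (177, 126, 170 and 175 CPM; -0.46), Rrm1 (102, 83.8, 117 and 110 CPM; -0.44) and Cdk1 (45.8, 25.7, 35.2 and 38.6 CPM; -0.53). For each of them the anti-PD-1 library is the lowest of the 4. The members' median change was -0.02 in the combination and -0.24 in anti-PD-1, against -0.02 and -0.01 over all genes. The combination lay below both PBS libraries for 17 of 42 members and above both for 14. Anti-PD-1 lay below both for 33 and above both for 6. The share of all genes outside the range of the PBS pair was not counted, so these counts do not set the members apart. Cdk1 was the 1 member that differed between the treated libraries (combination minus anti-PD-1 0.83, adjusted p = 0.017), beside 0.353% of all genes that were higher. DESeq2 called Mki67 alone, in anti-PD-1, beside 0.477% of all genes in the combination and 0.56% in anti-PD-1. With low copies kept 1 member was called in the combination and 0 in anti-PD-1, and the share of all genes called in that fit is not reported here. Of the other replication genes 0 and 0 of 24 were called by edgeR, and Kif15 (-0.49) was the 1 of 30 other mitotic genes called, in anti-PD-1.

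The CD8 T cell clusters differed far more from each other than the libraries did. In the cluster led by Hbb-bs, Gzmf and Cd8a, 41.6%, 38.5%, 43.7% and 45.2% of cells were cycling, and in the next, led by Gm156 and Gzmf, 27.4%, 22.2%, 35.0% and 37.7%. In the cluster led by Gzmk and Ccl5 it was 5.88%, 9.00%, 9.84% and 7.84%, and in the Lef1- and Dapl1-led cluster 2.38%, 1.07%, 2.61% and 4.15%. That last cluster held 9.00%, 14.8%, 28.7% and 21.1% of CD8 T cells, less in both treated libraries. At the cluster composition of the PBS pair the cycling shares were 18.2%, 16.4%, 22.1% and 21.4%, so both treated libraries then lay below both PBS libraries, unlike the shares as measured. The erythroid list (Hba-a1 and Hbb-bs) was 0, 0 and 0.0729 CPM in CD8 T cells of the first 3 libraries and 123 CPM in PBS 2, and its Hbb-bs was also the leading gene of the cluster that cycled most; its part in the result was not tested.

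Genes that the cycling call did not use were set side by side in cycling and other CD8 T cells. This is a description without a test, since the cells were chosen by the members; 29.6% of 11835 genes were higher and 32.8% lower in cycling cells in all 4 libraries. All 30 other mitotic and all 24 other replication genes were higher in cycling cells in all 4. E2f7 and E2f8, E2F repressors that are themselves induced in S phase, had means of 47.8 and 34.6 CPM in cycling cells and 1.15 and 0.975 CPM in the others. Lef1, Tcf7, Ccr7 and Il7r, genes of naive or stem-like T cells, were lower in all 4 libraries. Tcf7, a factor of stem-like T cells, had 16.3, 8.45, 33.0 and 21.5 CPM in cycling cells and 72.2, 79.5, 149 and 117 CPM in the others. Gzmb, Gzmc, Gzmd and Prf1, which encode cytotoxic proteins, were higher, with Gzmb at 1703, 1084, 516 and 753 CPM in cycling cells and 909, 543, 324 and 419 CPM in the others, whereas Ifng was lower (287, 430, 279 and 336 CPM against 624, 903, 390 and 431 CPM). The D cyclins Ccnd2 and Ccnd3 were lower in cycling cells (means of 110 and 98.7 CPM against 224 and 229 CPM), as was the CDK inhibitor Cdkn1b, while Cdk2, Cdk4 and the inhibitors Cdkn1a, Cdkn2a, Cdkn2c and Cdkn2d were higher.

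NK cells moved in the same direction as Treg, with fewer calls. In the combination 5 members were lower (Mcm3 -0.73, Cenpf -0.69, Ube2c -0.99, Cenpe -0.75 and Mki67 -0.65), beside 0.227% of all 13686 genes, and 20 had an unadjusted p under 0.05. Ube2c, the enzyme that feeds ubiquitin to the anaphase-promoting complex, had 14.6, 21.6, 33.7 and 24.0 CPM, and Mcm3 had 40.3, 50.5, 70.8 and 62.4 CPM; the treated libraries were the lowest for both. In anti-PD-1 edgeR called 0 members, beside 0.329% of all genes, with 17 at an unadjusted p under 0.05, and DESeq2 called 0 in either (0.0292% and 0.132% of all genes). The median change of the members was -0.45 and -0.39, against -0.02 and -0.02 over all genes. With low copies kept the counts were 1 and 0, Leiden clusters at higher resolution gave 11 and 1, and keeping doublet-scored cells gave 13 and 8. The share of all genes called in these fits is not reported here, so these counts do not set the members apart from other genes. The NK cluster led by Gzmc and Gzmd had 21.4%, 21.8%, 25.0% and 24.1% cycling cells and the one led by Gzmd and Gzme 11.8%, 12.3%, 16.7% and 27.1%, against 0.58% to 2.14% in the Itga2-led clusters. In cycling NK cells all 5 NK markers (Ncr1, Klrb1c, Klrk1, Eomes and Klra8) were lower in all 4 libraries, with Klrb1c at 169, 187, 192 and 240 CPM against 431, 431, 441 and 500 CPM in the other NK cells, beside 29.7% of 11070 genes that were lower. Of the 5 genes of the T cell list, Cd3d, Cd3e and Cd3g were higher in cycling NK cells in all 4 libraries, beside 24.3% of genes that were higher. Trbc2, a chain of the T cell receptor, was lower in all 4, and Trac was neither. Cd3g had 65.3, 32.5, 62.8 and 40.1 CPM in cycling NK cells and 35.2, 20.2, 36.8 and 24.5 CPM in the other NK cells. The part of these T cell genes in the result was not tested.

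In C1q macrophages the cycling cells had more C1qa, C1qb and C1qc, the subunits of complement C1q, and less of the monocyte genes Ccr2 and Ly6c2 and of the myeloid or macrophage genes Csf1r, Fcgr1 and Lyz2 in all 4 libraries, beside 25.2% of 10604 genes that were higher and 17.7% that were lower. Ly6c2 had 25.3, 12.6, 21.9 and 22.4 CPM in cycling cells and 195, 275, 114 and 214 CPM in the others. Foxm1, the activator of mitotic genes, had 38.4, 25.3, 21.5 and 39.3 CPM in cycling cells and 0.891, 1.87, 1.20 and 2.00 CPM in the others.

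CD45- cells gave no member past the threshold against PBS: edgeR called 0 in the combination and 0 in anti-PD-1 (4 and 6 at an unadjusted p under 0.05), and 1.66% and 2.62% of all 15146 genes were called. DESeq2 called 0 and 0 members (0.317% and 0.997% of all genes). With no filter on low counts edgeR called 3 higher in the combination and 6 lower in anti-PD-1, beside 2.10% and 2.81% of 23786 genes called. With low copies kept the counts were 3 higher and 7 lower, beside 3.75% and 5.40% of genes, and between the treated libraries 15 higher and 2 lower, beside 4.37%. The median change of the members was 0.05 and -0.22, against -0.01 and -0.02 over all genes. It was -0.16 and -0.33 within collagen-low cells and -0.25 and -1.40 within collagen-high cells. The larger collagen-low cluster made up 48.9%, 45.6%, 34.6% and 34.6% of CD45- cells. Cycling shares of CD45- cells were 39.4%, 38.7%, 40.1% and 33.3% as measured. At the cluster composition of the PBS pair they were 32.1%, 30.3%, 40.8% and 32.0%. The part of composition in the pooled change was not tested. The PBS pair itself was spread in the mitotic members, with Top2a at 594 and 476 CPM, Ube2c at 121 and 77.4 CPM and Kif11 at 54.1 and 33.1 CPM, and the combination library lay between or above them (548, 158 and 47.5 CPM). Between the treated libraries 3 members were higher in the combination, beside 1.31% of all genes: Cdk1 (85.9 against 44.1 CPM; 0.96, adjusted p = 0.035), Rrm2 (55.8 against 37.3 CPM; 0.58) and Pcna (89.9 against 61.7 CPM; 0.54). This compares 2 libraries and not 2 conditions. Pcna was also lowest in anti-PD-1 in monocytes and macrophages, CD8 T cells and Treg, and Cdk1 in monocytes and macrophages and CD8 T cells. The anti-PD-1 cells were the shallowest, and the part of depth in these levels was not tested. Within collagen-low cells edgeR called 0 in the combination (8 at an unadjusted p under 0.05) and Bub1 lower in anti-PD-1 (-0.84), beside 0.719% and 1.03% of all genes. Within collagen-high cells 0 were called in the combination (8 at an unadjusted p under 0.05; 0.574% of all genes) and 17 were lower in anti-PD-1, beside 0.834% of all genes that were lower. That library held 85 such cells with 4 cycling ones, and Mki67 had 48.6, 13.9, 56.6 and 45.8 CPM.

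In the remaining classes few or no members passed. T cells low in Cd4 and Cd8a had 0 calls by edgeR in either comparison with 0% of 12487 genes called, although 26 and 20 members had an unadjusted p under 0.05 and the median change was -0.75 and -0.64; DESeq2 called Stmn1 in the combination and 0 members in anti-PD-1 (0.136% and 0.032% of all genes), and edgeR with no filter on low counts called 18 and 10 lower, beside 1.99% and 1.02% of 21002 genes called in either direction. With low copies kept 7 and 0 were lower, beside 0.911% and 0.0806% of genes called. Conventional CD4 T cells (39 members tested) had 0 and 0 calls, 2 and 2 at an unadjusted p under 0.05, and 0.21% and 0.174% of all genes called; DESeq2 called 0 and 0 members and 0% of all genes. B cells (10 tested) and neutrophils (5 tested) had 0 and 0 by edgeR and DESeq2, with 1 and 0 in B cells and 0 and 1 in neutrophils at an unadjusted p under 0.05. Of all genes edgeR called 0.271% and 0.241% in B cells and 0.0372% and 0.13% in neutrophils, and DESeq2 0% and 0.0151% in B cells and 0% and 0.0372% in neutrophils. In cDC2 (33 tested) 6 members were lower in the combination and 2 in anti-PD-1, beside 0.179% and 0.155% of all genes that were lower, and DESeq2 called 0 and 0 (0.0238% and 0% of all genes). With low copies kept 3 and 0 were lower, and the share of all genes lower in that fit is not reported here. The member calls in cDC2 rest on few UMIs: Top2a had 15, 25, 108 and 78 UMIs and Mki67 29, 18, 116 and 81.

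The change in CD8 T cells was set against that in monocytes and macrophages of the same libraries, by the interaction of class and group. It was higher in CD8 T cells for 22 members in the combination and for 18 in anti-PD-1, beside 1.5% and 1.21% of 15881 genes, and lower for 0. Clustered with the cell cycle genes the counts were 2 and 11, and the median difference of the members in the combination was 0.27 instead of 0.61. Of all genes 1.71% and 0.753% were called in either direction in that fit, against 4.17% and 1.88% in the main fit. With low copies kept the counts were 23 and 10, beside 2.59% and 0.843% of all genes called. RLE scaling gave 20 and 10, beside 2.53% and 0.85%. Against NK cells it was higher for 8 members in the combination (7 mitotic and Stmn1; 0.701% of 15262 genes) and for 0 in anti-PD-1 (0.229%). The 8 became 0 with low copies kept, 1 with doublet-scored cells kept and 1 at higher Leiden resolution. Of all genes 0.118%, 0.174% and 0.19% were called in either direction in these fits, against 1.91% in the main fit. The median difference of the members was 0.36, 0.29 and 0.36, against 0.37 in the main fit. Against CD45- cells it was called for 0 and 0 members by edgeR (0.963% and 0.0242% of 16508 genes), also with low copies kept.

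The members followed each other within classes to different degrees. Across 6498 CD8 T cells, each member was correlated with the summed UMIs of the other members of its own group and with those of the other group, as a description over single cells that share depth and library. Top2a (0.71 with its own group) and Mki67 (0.69) followed the mitotic members most closely, and Pclaf, which binds Pcna, followed the S-phase members most closely (0.52) and the mitotic ones slightly more (0.57). Cenpa, the member that rose in CD8 T cells of the combination, was correlated at 0.32 with its own group and 0.10 with the S-phase members. Its mean was 58.9 CPM in non-cycling CD8 T cells, and cycling cells had 3.46 times as much, against 21.8 times for Top2a and 87.2 times for Ccna2, all 3 of which the call itself used. Some genes share sequence with others in the last 500 bases, where these reads begin, and their counts are uncertain to that extent: Mcm7 (36.6% of its 31-base stretches), Cenpf (25.5%), Cdc20 (22.6%), Mki67 (21.9%), Kif11 (16.2%) and Mcm5 (12.6%).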

How the data were processed

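UMI counts per gene and cell barcode were deposited for 4 libraries by the authors. Per the file headers the matrices came from Cell Ranger 7.1.0, whereas Cell Ranger 3.0.2 and mm10 stand in the submitters' processing notes; the sources used here do not say how these relate. The members and lists were chosen with earlier results of these data known. Cells with at least 200 genes and under 15% mitochondrial counts were kept, and the highest Scrublet scores (0.8% per 1000 cells) were removed as doublets with Scanpy 1.11.5, because the automatic threshold marked too few. Clusters came from Leiden partitions (leidenalg 0.10.2) and were named by markers. Sums of counts over the cells of a class in each library went into edgeR 4.0.16 (R 4.3.3; TMM, filterByExpr with a minimum count of 10, robust quasi-likelihood), with Benjamini-Hochberg adjustment over all genes of a class and comparison. The PBS pair gives the only residual degree of freedom, so the treated libraries were assumed to vary like it. CPM of single genes are TMM-scaled, and summed lists are plain CPM. DESeq2 1.42.0 was an alternative. The edgeR fits were also run on simulated sums with a common dispersion for all genes and changes in the anti-PD-1 library only. Those sums are simpler than the real ones, and the outcome is not reported here.

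Genes are named when past the threshold (up to 10 per class and comparison by adjusted p), as fixed representatives, or as list genes past the threshold; other named genes were chosen after their values were seen. Removal of low copies of shared barcodes and the single-cluster and mixed-cluster fits were added after seeing the data. Promoters are from RefSeq.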

Additional observations from a re-analysis of the deposited data

Results flagged for a closer look

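The change from PBS differed between CD8 T cells and monocytes and macrophages of the same libraries by the interaction test in edgeR, for 22 members in the combination and 18 in anti-PD-1, each with a higher change in CD8 T cells. In the combination the difference of the log2 changes was 0.76 for Stmn1, 0.95 for Tyms, 0.52 for Mki67, 0.54 for Mcm5, 0.65 for Top2a, 1.07 for Rrm2 and 0.93 for Ccnb1. In anti-PD-1 it was 0.68 for Stmn1, 0.70 for Tyms, 0.66 for Mki67, 0.65 for Mcm5, 0.86 for Top2a and 1.44 for Rrm2. Both comparisons share the PBS pair. Clustered with the cell cycle genes, the change differed for 2 members in the combination and 11 in anti-PD-1. In that fit 1.71% and 0.753% of all genes were called in either direction, against 4.17% and 1.88% in the main fit. Against NK cells the change differed for 8 members in the combination: Ube2c, Ccnb2, Cenpf, Birc5, Cenpe, Stmn1, Top2a and Mki67. This count was 0 with low copies kept, 1 with doublet-scored cells kept and 1 at higher Leiden resolution. Calls over all genes fell too, to 0.118%, 0.174% and 0.19% in either direction, against 1.91% in the main fit.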

How the results depend on the processing

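Calls were summed over classes, so that a member counts once for each class in which it was called. By edgeR they came to 56 in the combination against PBS, 44 in anti-PD-1 against PBS and 7 between the treated libraries. Monocytes and macrophages gave 24 of the 56 and Treg 20. The share of all genes called is not reported beside these totals or those of the other settings. DESeq2 called 5, 5 and 1, and clustering with the cell cycle genes gave 36 for the first. Between the treated libraries the count was 25 with no filter, 24 with sums thinned to equal totals, 20 with doublet-scored cells kept, 31 when clustered with the cell cycle genes and 20 with low copies kept. The 48 differences between classes became 31 with doublet-scored cells kept and 23 when clustered with the cell cycle genes, whereas the 71 differences in level between classes stayed within 1.5 times under the settings run. Of 107 calls, 9 were kept by DESeq2, 66 when clustered with the cell cycle genes, 75 with low copies kept and 101 with RLE scaling. No value called against PBS changed sign without either PBS library. That outcome was likely beforehand, since a call weighs the change against the spread of the PBS pair. Calls between the treated libraries were not examined in this way.

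As log2 ratios to the PBS mean, the cycling share of CD8 T cells was 0.024 in the combination (-0.070 not thinned) and -0.20 in anti-PD-1 (-0.31 thinned to 1000 UMIs, -0.60 not thinned). In CD45- cells it was 0.076 in anti-PD-1 (-0.18 thinned to 1000 UMIs, -0.13 at 8 UMIs from 4 members). In monocytes and macrophages it was -0.93 in the combination (-0.78 at 3 UMIs from 2 members, -0.63 not thinned, -0.74 clustered with the cell cycle genes) and -1.06 in anti-PD-1 (-0.91, -1.35 not thinned, and -0.89 with low-UMI clusters kept). The causes were not tested. Counts without a PBS library have no residual degrees of freedom and were not tested. No paired analysis was possible because the groups compared share fewer than 2 replicate numbers. Low copies kept, the higher resolution for shares and the alternatives for class differences were chosen after seeing the data. Cells of the anti-PD-1 library had the lowest median UMI count, and cells under 2000 UMIs entered no cycling share.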
